A study of Mus musculus with 6 samples.

Results

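Bulk RNA-seq of mouse bone marrow was used to follow 9 genes of early B cell development: Vpreb1, Vpreb3, Igll1, Rag1, Rag2, Dntt, Pax5, Ebf1 and Cd79a. They were chosen by name, with earlier results of these data known, as 9 of the 45706 gene identifiers in the count table. All 9 passed the filter on low counts. The 6 libraries comprised 2 labelled as marrow in control medium (control replicates 1 and 2) and 4 of marrow cultures treated with conditioned medium. Conditioned medium is medium in which other cells, here clear cell renal cell carcinoma (ccRCC) cells, have been grown, and each of the 4 came from 1 tumour cell line, VpR83, VpR99, VpR126 or VpR2020. The series concerns how tumour cells, myeloid cells and T cells influence each other in a mouse ccRCC model that resists checkpoint therapy.

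The 4 lines stood in as replicates of the treatment, with 1 library each, so differences between lines were not testable. The series' design text gives fresh marrow as the comparator, whereas the sample labels give control medium, and the headers of the control columns name no medium. Whether time in culture differed along with the medium is not stated, and the effects of time and medium cannot be told apart. Tags that no label explains stand in the column headers of VpR83 (Ctrl), VpR99 (T1) and VpR126 (LT2). The sources used here do not give strain, age, number of animals or culture time. No label states that the libraries are separate animals or cultures, so the spread behind each p-value is that of these 6 libraries, and may be partly technical.

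B cells form in the bone marrow from lymphoid progenitors that switch on the transcription factors EBF1 and PAX5. In pro-B cells the RAG1 and RAG2 recombinase cuts the immunoglobulin heavy chain locus and terminal transferase, encoded by Dntt, adds bases at the joints. A productive heavy chain is then paired with the surrogate light chain of VPREB1 and the product of Igll1 (lambda 5) and signals through CD79A and CD79B as the pre-B cell receptor, after which the surrogate light chain and Dntt are switched off and RAG returns for light chain rearrangement. Vpreb1, Igll1 and Dntt are therefore markers of the earliest stages, whereas Cd79a, Pax5 and Ebf1 are also expressed in later B cells.

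The stretch upstream of the start site is shown for Igll1, Dntt and Rag1, because the first pair had among the lowest levels relative to the controls and Rag1 the highest. All 9 genes matched the RefSeq promoter table (build GRCm38.p6), with 2 start sites for Ebf1 and 1 for each other gene. The 250 bases before the start are printed 5′ to 3′ on the strand of the gene, in lower case, with capitals for a match on either strand to the E-box of the factor E2A (CAGGTG) or the core of IKAROS sites (TGGGAA). The windows lie at chr16:16863986-16864235 (minus strand) for Igll1, chr19:41029025-41029274 (plus strand) for Dntt and chr2:101649533-101649782 (minus strand) for Rag1, and none overlaps an annotated exon.
Igll1: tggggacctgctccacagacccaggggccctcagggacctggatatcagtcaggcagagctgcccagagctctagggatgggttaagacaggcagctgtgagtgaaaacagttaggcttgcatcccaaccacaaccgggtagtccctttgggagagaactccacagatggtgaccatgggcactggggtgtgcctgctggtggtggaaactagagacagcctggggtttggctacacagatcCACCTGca
Dntt: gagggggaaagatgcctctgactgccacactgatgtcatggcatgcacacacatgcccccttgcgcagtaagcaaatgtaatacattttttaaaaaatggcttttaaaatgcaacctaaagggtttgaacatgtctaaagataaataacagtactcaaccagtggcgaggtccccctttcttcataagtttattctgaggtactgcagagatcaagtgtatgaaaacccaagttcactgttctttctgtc
Rag1: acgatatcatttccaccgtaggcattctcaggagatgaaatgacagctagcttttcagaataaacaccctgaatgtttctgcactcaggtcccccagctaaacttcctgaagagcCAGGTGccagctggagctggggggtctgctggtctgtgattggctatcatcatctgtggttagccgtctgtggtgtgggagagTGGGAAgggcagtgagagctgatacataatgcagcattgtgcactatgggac

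The E-box was found in 4 of the 10 windows of the 9 genes, those of Vpreb1, Igll1, Cd79a and Rag1, against 17.3% of 32536 promoter windows of the same length. It began 88 bases before the RefSeq start in Vpreb1, 8 in Igll1 (on the opposite strand), 154 in Cd79a and 135 in Rag1. Not all windows are free of exons. Annotated exons cover 190 bases of the Vpreb1 window, 116 of the Cd79a window and all 250 of the first Ebf1 window. The Vpreb1 window lies within the annotated span of the gene. The IKAROS core was found in 2 windows, that of Rag1, 52 bases before the start, and that of the second Ebf1 start, against 21.6% of all windows. An EBF1-like palindrome, TCCC and GGGA separated by 2 bases, was found in none of the 10 windows and in 0.787% of all windows. The motifs share no overlapping match in these windows. Windows with and without an E-box held both genes with very low and genes with less reduced levels: Igll1 has one and Dntt has none, and the matches are a description of the letters only.

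The surrogate light chain gene Vpreb1 has a close copy, Vpreb2, and the E-boxes of both are shown with 12 bases on either side, beside that of Cd79a, because the copies bear on how Vpreb1 reads can be counted. The stretches lie at chr16:16869326-16869355 (minus strand), chr16:17980321-17980350 (plus strand) and chr7:24897331-24897360 (plus strand), in this order, and the capitals mark the E-box.
Vpreb1: atgacgttccagCAGGTGcttcctcccaga
Vpreb2: atgactttccagCAGGTGcttcctcccaga
Cd79a: ttgtggccagccCAGGTGcagggcagttcc

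The windows of Vpreb1 and Vpreb2 share an identical run of 91 bases that includes the E-box. Within the annotated transcripts, 233 of the 1238 distinct 50-base words of Vpreb1 also occur in Vpreb2, so reads from these stretches may be split between the copies or lost by the counting. Dntt, Igll1, Vpreb3 and Ebf1 share no such word with another gene.

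The 9 genes lie on 7 chromosomes (GENCODE M21, GRCm38). Vpreb1 (chr16:16868403-16870843) and Igll1 (chr16:16860671-16863985) lie close together on the minus strand of chromosome 16. Rag1 (chr2:101638282-101649501, minus strand) and Rag2 (chr2:101624718-101632529, plus strand) lie close together on chromosome 2. Vpreb3 lies at chr10:75943057-75949657, Cd79a at chr7:24897381-24902197, Dntt at chr19:41029275-41059525 and Ebf1 at chr11:44617317-45008091, all on the plus strand. Pax5 lies at chr4:44524757-44710487 on the minus strand.

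Total counts were 18629708 to 28055913 in 5 libraries and 129120559 in VpR99. Levels are CPM (counts relative to the library total) scaled by TMM, a factor that corrects for differences in RNA composition. Of the 15141 genes tested, 19.7% were called lower in conditioned medium and 22.5% higher (edgeR, adjusted p below 0.05). Lower genes made up 46.7% of the calls, and 60% with upper-quartile scaling or 61.4% with library totals, which moved the median over all genes from -0.01 to -0.22 and -0.26 on the log2 scale. The 4 conditioned libraries and the 2 controls stood apart, with a chi-square per degree of freedom of 31.2 between the controls, 74.1 to 457 between conditioned libraries and 642 to 1164 across the groups.

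In conditioned medium, 6 of the 9 genes were called lower (Vpreb1, Vpreb3, Igll1, Cd79a, Dntt and Ebf1), none was called higher, and Rag1, Rag2 and Pax5 were not called. This compares with a background of 19.7% of all tested genes called lower. Since the 9 genes were chosen with earlier results of these data known, the comparisons with all genes are descriptions, not tests. All 4 conditioned libraries were below both controls in 8 of the 9 genes, against 33.3% of all genes, and the exception was Rag1. The median log2 fold change of the 9 genes was -3.24, against -0.01 over all genes, and the 9 values ran from -6.25 (Dntt) to -1.07 (Rag1). In bulk RNA, fewer cells of a type and less RNA of these genes per cell cannot be told apart, for these and all later values. Each of the 9 genes reached the filter's 0.376 CPM in both controls and also in 2 to 4 of the conditioned libraries.

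**Figure D1:**
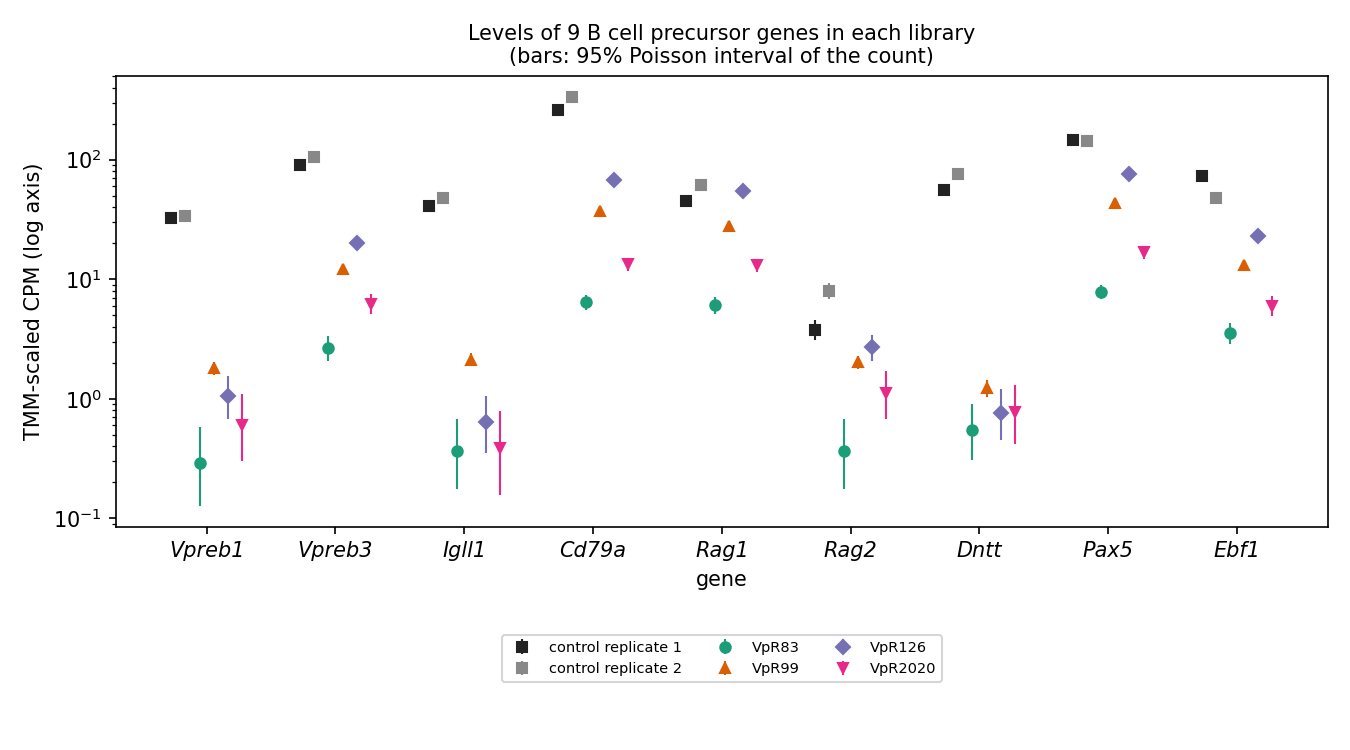
TMM-scaled CPM on a log axis for the 9 genes in each of the 6 libraries, with squares for the 2 controls, other symbols for the 4 lines, and bars for the 95% Poisson interval of the count. The conditioned libraries lie below both controls in 8 genes, and VpR126 lies between the controls in Rag1.

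Among the surrogate light chain genes, Vpreb1, the V-like component of the chain, was at 32.3 and 34.0 CPM in the controls and at 0.293 (VpR83), 1.80 (VpR99), 1.06 (VpR126) and 0.609 CPM (VpR2020). All 4 conditioned libraries were far below both controls, at 0.884% to 5.43% of the control mean. Vpreb1 fell by 5.06 on the log2 scale (SE 0.60, edgeR adjusted p = 0.0018), from 33.1 ± 1.19 (SD, n = 2) to 0.939 ± 0.654 CPM (SD, n = 4).

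Igll1, which encodes lambda 5, the constant-like component of the chain, was at 40.7 and 47.7 CPM in the controls and at 0.366 (VpR83), 2.12 (VpR99), 0.634 (VpR126) and 0.387 CPM (VpR2020). Again no conditioned library came near the controls, and VpR99 was the highest of the 4. Igll1 fell by 5.51 on the log2 scale (SE 0.70, edgeR adjusted p = 0.0023). Without VpR99 the log2 fold change was -6.56 for Igll1 and -5.66 for Vpreb1, both more than 1.5 times further from the controls in fold.

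Vpreb3, whose product associates with immunoglobulin chains in the endoplasmic reticulum of precursor and later B cells, was at 89.9 and 106 CPM in the controls. It was at 2.67 (VpR83), 12.3 (VpR99), 20.1 (VpR126) and 6.20 CPM (VpR2020), below both controls in every line but with a wider range of 2.73% to 20.5% of the control mean. Vpreb3 fell by 3.24 on the log2 scale (SE 0.68, edgeR adjusted p = 0.011). The call was lost without control replicate 1 (adjusted p = 0.055) and without control replicate 2 (adjusted p = 0.065).

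Cd79a, which encodes a signalling chain of the pre-B cell and B cell receptors, had the highest level per kilobase of the 9 genes and was at 259 and 332 CPM in the controls. It was at 6.41 (VpR83), 37.2 (VpR99), 67.1 (VpR126) and 13.4 CPM (VpR2020). The lines differed among themselves by up to 10.5-fold, the widest range of the 9 genes, and all lay below both controls. Cd79a fell by 3.25 on the log2 scale (SE 0.82, edgeR adjusted p = 0.021). The call was lost without either control (adjusted p = 0.078 without replicate 1 and 0.098 without replicate 2), and the fold change was -3.93 without VpR126.

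Rag1, the catalytic subunit of the recombinase, was at 45.4 and 61.1 CPM in the controls and at 6.04 (VpR83), 28.1 (VpR99), 54.5 (VpR126) and 13.1 CPM (VpR2020). VpR126 lay between the controls, at 102% of their mean, whereas VpR83 was at 11.3%. Rag1 was not called (log2 fold change -1.07, SE 0.76, edgeR adjusted p = 0.29), nor was it under any of the 14 alternatives. Its value without VpR126 was -1.74 (adjusted p = 0.060).

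Rag2, the partner subunit, was low throughout, at 3.80 and 7.94 CPM in the controls and 0.366 (VpR83), 2.03 (VpR99), 2.70 (VpR126) and 1.11 CPM (VpR2020). The conditioned libraries were all below the lower control, but the controls themselves differed by 2.09-fold. Rag2 was not called (log2 fold change -1.91, SE 0.72, edgeR adjusted p = 0.072). It was called without VpR126 (adjusted p = 0.045) and its value without control replicate 2 was -1.27.

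Dntt, the terminal transferase gene, had the largest difference of the 9, at 55.9 and 75.2 CPM in the controls against 0.549 (VpR83), 1.22 (VpR99), 0.760 (VpR126) and 0.775 CPM (VpR2020). The 4 lines were close together, at 0.838% to 1.86% of the control mean, and their counting intervals overlapped between neighbours. Dntt fell by 6.25 on the log2 scale (SE 0.33, edgeR adjusted p = 0.00019). Vpreb1, Igll1 and Dntt were called lower in all 14 alternatives.

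Of the transcription factors, Pax5, which commits progenitors to the B lineage and stays on until the plasma cell stage, was at 147 and 142 CPM in the controls. It was at 7.83 (VpR83), 43.1 (VpR99), 75.3 (VpR126) and 16.8 CPM (VpR2020), below both controls in all 4 lines, from 5.42% to 52.1% of the control mean. Pax5 was not called (log2 fold change -2.01, SE 0.77, edgeR adjusted p = 0.077). It was called without VpR126, at -2.66 (adjusted p = 0.023).

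Ebf1, the factor that acts upstream of Pax5 and opens B lineage chromatin, was at 73.4 and 48.0 CPM in the controls. It was at 3.55 (VpR83), 13.2 (VpR99), 22.8 (VpR126) and 6.03 CPM (VpR2020), so that all 4 lines were below the lower control. Ebf1 fell by 2.41 on the log2 scale (SE 0.67, edgeR adjusted p = 0.029). This call was lost in 5 alternatives: without control replicate 1 (adjusted p = 0.15), control replicate 2 (0.086), VpR99 (0.051) or VpR2020 (0.064), and with no low-count filter (0.098).

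Leaving out single libraries moved the count of the 9 genes called lower, and the background moved with it. Without control replicate 1 the count was 3 (Vpreb1, Igll1 and Dntt), with 5.83% of all genes called lower. Without control replicate 2 the same 3 genes were called, with 6.19% of all genes. Without VpR126, 8 genes were called, all but Rag1, with 22.3% of all genes. DESeq2 also called those 8 (22.9% of all genes), and with no low-count filter 4 were called (Vpreb1, Vpreb3, Igll1 and Dntt), with 9.59% of all genes.

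Per kilobase of annotated exon, the order of the levels differed between the groups. In control medium, mean CPM per kilobase ran from Cd79a (203) and Vpreb3 (114) through Dntt (28.6), Vpreb1 (27.6), Igll1 (20.4), Pax5 (16.3), Rag1 (8.06) and Ebf1 (6.22) to Rag2 (1.71). In conditioned medium it ran from Cd79a (21.3) and Vpreb3 (12) through Pax5 (4.04), Rag1 (3.85), Ebf1 (1.17), Vpreb1 (0.783), Rag2 (0.453) and Igll1 (0.406) to Dntt (0.360). In each library Cd79a and Vpreb3 led. Dntt, Vpreb1 and Igll1 were above Pax5 and Rag1 in both controls and below them in all 4 lines. The lowest value per kilobase was that of Rag2 in VpR83 (0.107), Dntt in VpR99 (0.531) and Igll1 in VpR126 (0.293) and VpR2020 (0.179). The next lowest were Igll1 in VpR83 (0.169), Rag2 in VpR99 (0.594), Dntt in VpR126 (0.332) and Rag2 in VpR2020 (0.323). Counts of these lowest genes were as low as 10 in VpR83, 15 in VpR126 and 7 in VpR2020, so counting error does not settle which was lowest.

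The lines kept one order in 6 of the 9 genes. VpR126 was highest, followed by VpR99, VpR2020 and VpR83, in Vpreb3, Cd79a, Rag1, Rag2, Pax5 and Ebf1. The 95% Poisson intervals, which cover counting error only, were apart between all neighbours in this order except VpR126 and VpR99 in Rag2. Vpreb1, Igll1 and Dntt differed: VpR99 was highest in these 3 genes. In Vpreb1 and Igll1 the interval of VpR99 lay above those of the other lines, whose neighbouring intervals overlapped. In Dntt, the intervals of all neighbours overlapped. VpR83 was the lowest line in all 9 genes. The highest line exceeded the lowest by 2.21-fold in Dntt and by 5.80-fold (Igll1) to 10.5-fold (Cd79a) in the other 8 genes.

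**Figure D2:**
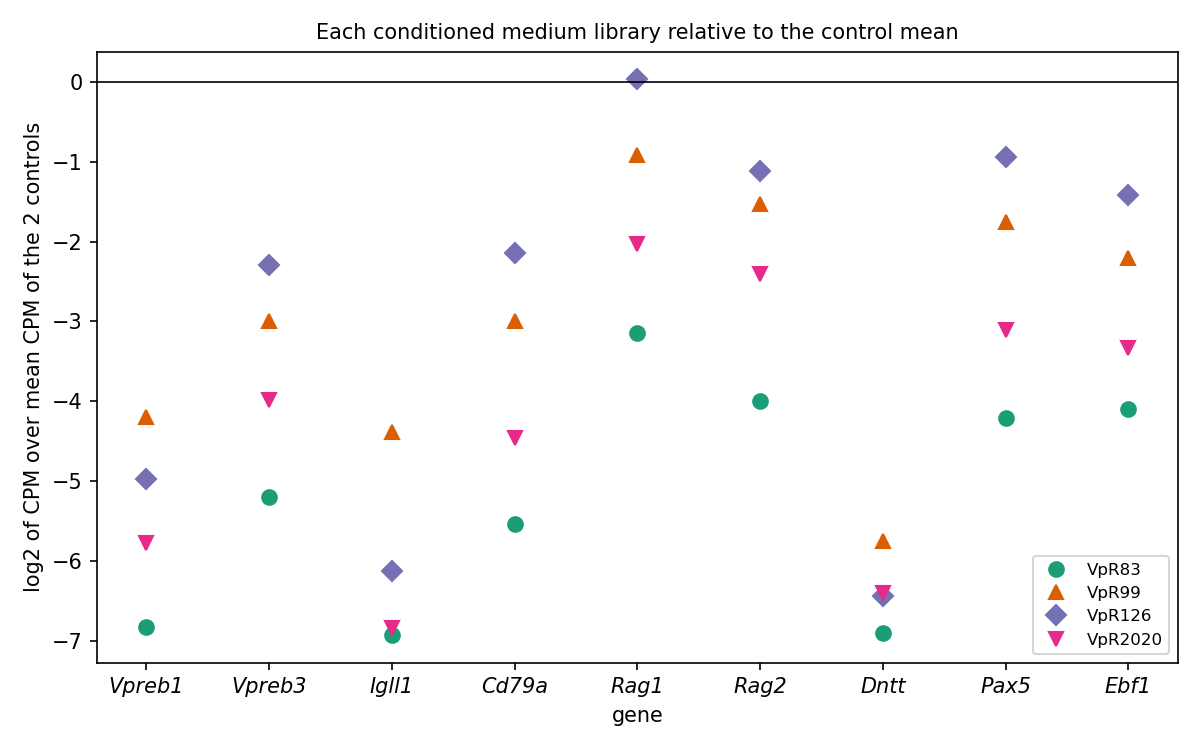
The log2 ratio of each conditioned library to the mean of the 2 controls (line at 0) for the 9 genes, with 1 symbol per line. Dntt lies between -6.90 and -5.75 in the 4 lines, whereas Rag1 runs from -3.14 (VpR83) to 0.03 (VpR126).

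Summed over the 9 genes, the level was 747 and 854 CPM in the controls and 28.1 (VpR83), 141 (VpR99), 245 (VpR126) and 58.3 CPM (VpR2020). The make-up of this sum differed between the groups. Rag1 supplied 6.08% and 7.16% of the summed counts in the controls and 19.9% to 22.4% in the 4 lines. Pax5 supplied 16.7% and 19.7% in the controls and 27.9% to 30.8% in the lines. Igll1 supplied 5.45% and 5.59% in the controls and 0.259% to 1.5% in the lines, and Dntt 7.48% and 8.81% against 0.311% to 1.96%. For these 4 genes the shares did not overlap between the groups, in VpR83, with the lowest sum, as well as in VpR126, with the highest. Those of Vpreb1, Vpreb3, Cd79a and Rag2 did not overlap either. Rag2 was at 0.508% and 0.930% in the controls and 1.10% to 1.90% in the lines. Only Ebf1 overlapped, at 9.83% and 5.62% in the controls and 9.30% to 12.6% in the lines.

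**Figure D3:**
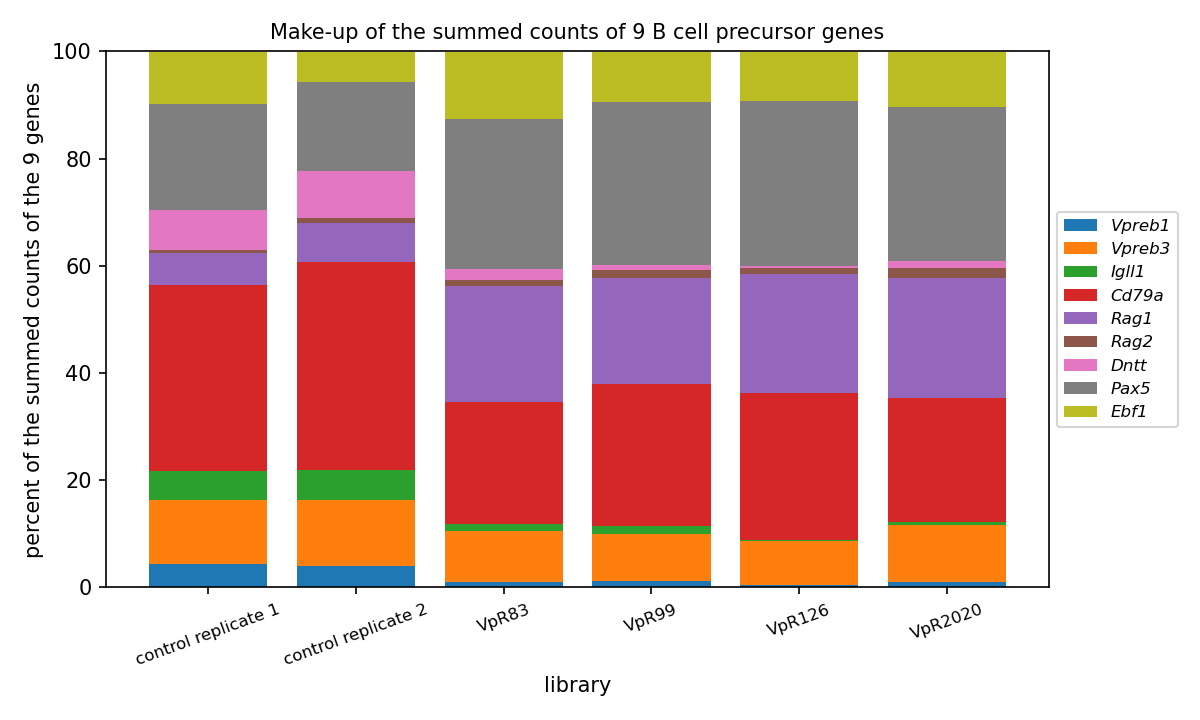
Stacked bars of the percent of the summed counts of the 9 genes that each gene supplied, for each library. The shares of Rag1, Rag2 and Pax5 are larger in the 4 conditioned libraries than in both controls. Those of Igll1, Vpreb1, Dntt, Vpreb3 and Cd79a are smaller, and that of Ebf1 overlaps.

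Ratios of counts within a library do not depend on the scaling between libraries. The pairs described here were chosen after their values were seen, and no test was made. Cd79a over Vpreb3 was 2.88 and 3.12 in the controls and 2.40, 3.02, 3.35 and 2.16 in VpR83, VpR99, VpR126 and VpR2020, and the groups overlapped. Igll1 over Vpreb1, the components of the surrogate light chain, was 1.26 and 1.40 in the controls and 1.25, 1.18, 0.600 and 0.636 in the lines, with wide intervals in the lines (0.209 to 1.80 in VpR2020). Pax5 over Ebf1 was 2.0 and 2.96 in the controls and 2.21, 3.26, 3.31 and 2.78 in the lines, and the groups overlapped.

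By contrast, Rag1 over Dntt was 0.813 in both controls and 11, 23.1, 71.6 and 16.9 in the lines. Rag1 over Igll1 was 1.12 and 1.28 in the controls and 16.5, 13.2, 85.9 and 33.7 in the lines. Rag1 over Cd79a was 0.176 and 0.184 in the controls and 0.943, 0.755, 0.811 and 0.975 in the lines. In these 3 pairs the groups were apart by more than the counting intervals. Rag1 over Rag2 was 12 and 7.70 in the controls and 16.5, 13.8, 20.1 and 11.8 in the lines, where VpR2020 lay between the controls. Cd79a over Cd79b, the partner chains of the same receptor, was 1.17 and 1.13 in the controls and 0.383, 0.707, 0.729 and 0.482 in the lines.

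**Figure D4:**
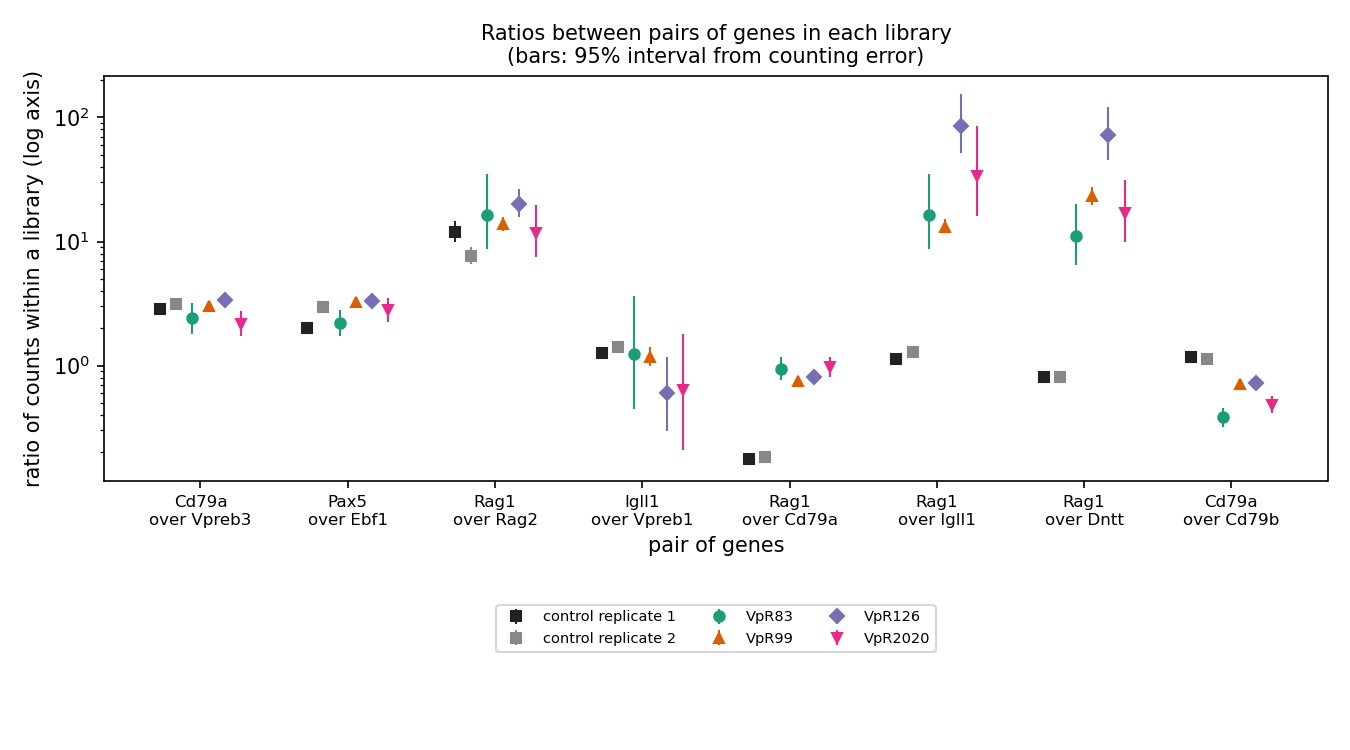
Ratio of counts between pairs of genes within each library, on a log axis, with bars for the 95% interval from counting error. Cd79a over Vpreb3 lies between 2.16 and 3.35 in all 6 libraries, while Rag1 over Dntt is 0.813 in both controls and at least 11 in the 4 lines.

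The other genes of the pathway were described from 5 lists with 56 genes, of which 55 were tested. Of these, 31 were called lower, 3 higher and 21 were not called, with a median log2 fold change of -1.60. Over all genes tested, 19.7% were called lower and 22.5% higher. Without control replicate 1, 13 were called lower and 1 higher, and the counts were also 13 and 1 without control replicate 2. By list, the counts called lower without control replicate 1 and without replicate 2 were 2 and 2 for receptor partners, 3 and 2 for regulators, 2 and 3 for progenitor markers, 3 and 3 for end joining and 3 and 3 for later B cell genes. The share of all genes called lower also fell without either control, as given above. Single calls below, of named genes from the lists, that do not hold without 1 or both controls are named as such.

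Of 12 partners and signalling genes of the pre-B cell receptor, 5 were called lower, 1 higher and 6 were not called (median -0.46). The number called lower was 3 without VpR99, 3 without VpR2020 and 2 with no low-count filter. Vpreb2, the copy of Vpreb1, was at 3.0 and 2.58 CPM in the controls and at 0.146, 0.195, 0.0845 and 0.111 CPM in VpR83, VpR99, VpR126 and VpR2020, and fell by 4.24 on the log2 scale (SE 0.40, edgeR adjusted p = 0.0010). Ighm, the mu heavy chain gene, was at 1752 and 1799 CPM in the controls and at 149, 251, 431 and 194 CPM in the lines, and fell by 2.79 (SE 0.40, adjusted p = 0.0033). Syk, a kinase that the receptor shares with many myeloid receptors, was not called (log2 fold change 0.23, adjusted p = 0.53). Pik3ap1, an adaptor to PI3 kinase in B and myeloid cells, was higher, from 64.8 ± 1.56 (SD, n = 2) to 307 ± 115 CPM (SD, n = 4), with a log2 fold change of 2.25 (adjusted p = 0.0050). Its adjusted p was 0.051 without either control.

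Of 14 regulators of the early B lineage, 9 were called lower, none higher and 5 were not called (median -1.75). Lef1, a factor of pro-B and pre-B cells, fell by 3.45 on the log2 scale (adjusted p = 0.0093, and 0.064 without control replicate 2). Bcl11a, needed for lymphoid progenitors, fell by 2.92 (adjusted p = 0.0048). Ikzf1, which encodes IKAROS and is also expressed in other blood cells, fell by 0.95 (adjusted p = 0.015, and 0.097 and 0.086 without control replicate 1 or 2). Irf8, shared with monocytes and dendritic cells, was not called (log2 fold change -0.05, adjusted p = 0.87).

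Of 9 receptors and surface markers of lymphoid progenitors, 8 were tested, of which 4 were called lower, 1 higher and 3 were not called (median -1.30). Cd2 fell by 3.50 on the log2 scale (adjusted p = 0.010, and 0.059 and 0.058 without control replicate 1 or 2). Cd24a, the heat-stable antigen used to stage B cell precursors and also found on erythroid and granulocyte precursors, fell by 2.85 (adjusted p = 0.0026). Cd93, an early B cell marker that myeloid cells also carry, was higher in all 4 lines, at 98.0 and 91.7 CPM in the controls and 1227, 842, 1039 and 1393 CPM in VpR83, VpR99, VpR126 and VpR2020. Its log2 fold change was 3.57 (SE 0.28, edgeR adjusted p = 0.00065).

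Of 9 partners of RAG in cutting and end joining, most of which are expressed in many cell types, 6 were called lower, 1 higher and 2 were not called (median -0.83). Xrcc5, which encodes the KU80 subunit, fell by 2.87 (adjusted p = 0.011, and 0.065 and 0.064 without control replicate 1 or 2), and its value without VpR99 was -3.57. Hmgb2 and Hmgb1, chromatin proteins that help RAG bind DNA, fell by 2.26 and 1.35 (adjusted p = 0.0051 and 0.0048). Dclre1c, which encodes the nuclease ARTEMIS that opens the hairpins left by RAG, was higher, at 13.8 and 13.5 CPM in the controls and 37.1, 41.3, 87.4 and 54.9 CPM in the lines. Its log2 fold change was 2.02 (SE 0.39, edgeR adjusted p = 0.0090, and 0.073 and 0.071 without control replicate 1 or 2).

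Of 12 genes of later B cells, 7 were called lower, none higher and 5 were not called (median -2.69), and without VpR126 all 12 were called lower. Fcer2a (CD23) fell by 5.57 on the log2 scale (adjusted p = 0.0014) and Cr2, the complement receptor CD21, fell by 3.77 (adjusted p = 0.0061). Cd37, a tetraspanin, fell by 1.31 (adjusted p = 0.0018), and Cd72, an inhibitory receptor, was not called (log2 fold change -1.53, adjusted p = 0.095, and 0.030 without VpR126 or 0.036 with DESeq2). VpR126 was the highest line in 12 of these 12 genes and VpR83 the lowest in 10. Cd79a, Pax5, Ebf1, Vpreb3, Rag1 and Rag2 had the same ends of the order. VpR126 was also highest in 7 of 7 plasmacytoid dendritic cell, 9 of 10 T cell and 5 of 6 plasma cell markers described below. It was highest in 6 of 8 stromal, 4 of 6 macrophage, 3 of 6 erythroid and 2 of 7 neutrophil markers. Dntt (-6.25), Fcer2a (-5.57), Igll1 (-5.51) and Vpreb1 (-5.06) had the lowest log2 fold changes of the 9 precursor genes and the 5 lists together.

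**Figure D5:**
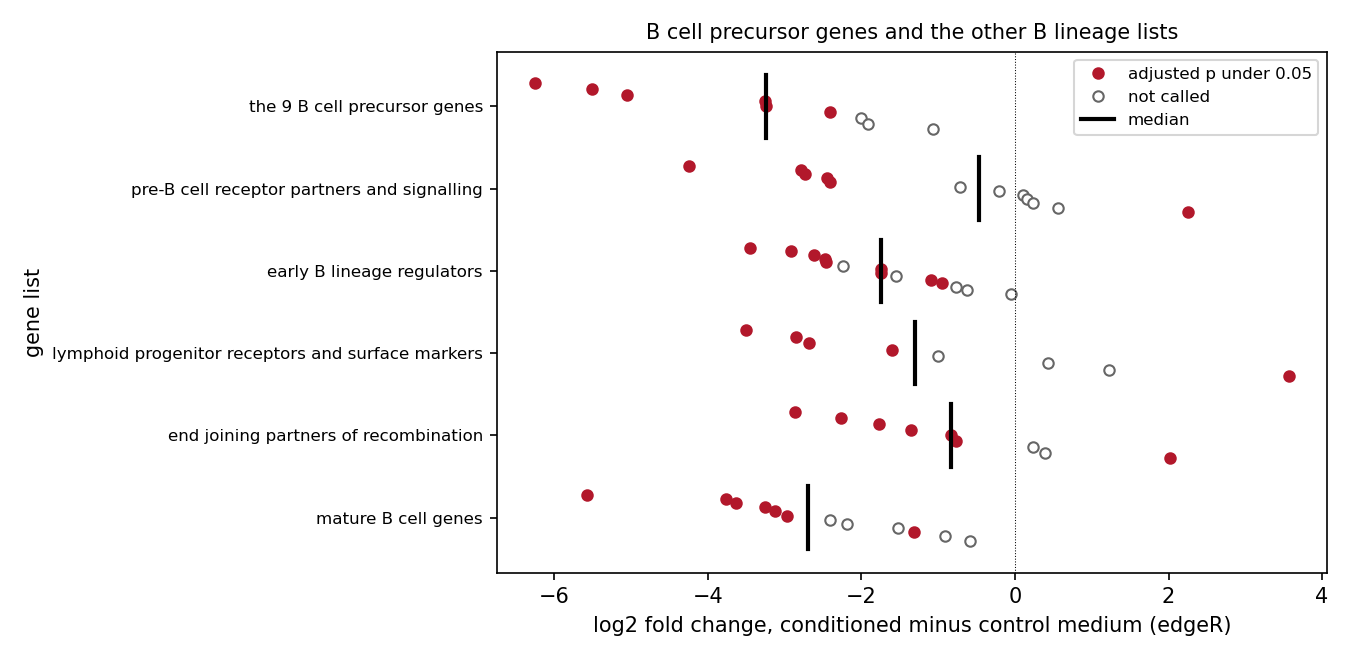
The log2 fold change of conditioned against control medium (edgeR) for the 9 precursor genes and the tested genes of 5 B lineage lists, with filled points for an adjusted p below 0.05, open points for genes not called, and a black line at the median. Medians run from -3.24 (the 9 genes) to -0.46 (receptor partners and signalling), and 3 genes are called higher.

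Markers of other marrow cells also differed between the groups, in both directions, and their part in these results was not tested. Of 48 tested, 33 were called lower and 10 higher, against 19.7% and 22.5% of all genes tested. All 6 macrophage markers were called higher, with summed levels of 374 and 379 CPM in the controls and 4190 (VpR99) to 10456 CPM (VpR126) in the lines. Without either control, 4 of the 6 were called. Of 7 neutrophil markers, 6 were called lower, with summed levels of 63588 and 70002 CPM in the controls and 2121 (VpR83), 12397 (VpR99), 5153 (VpR126) and 3243 CPM (VpR2020) in the lines, and 3 and 4 were called without control replicate 1 or 2. VpR99, the highest line in Vpreb1, Igll1 and Dntt, was also the highest in this sum, most of which is S100a8 and S100a9, and in 5 of the 7 single markers, while Camp (166 CPM) and Ltf (981 CPM) were highest in VpR126. All 6 erythroid markers were called lower, from 776 and 1642 CPM summed in the controls to 0.300 to 4.56 CPM, and Slc4a1, the anion exchanger of red cells, had no count in any conditioned library.

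Precursors of T cells and some plasmacytoid dendritic cells can also express Rag1, Rag2 and Dntt, and markers of both were counted for that reason. Of 10 T cell markers, 9 were tested, of which 7 were called lower and none higher, with summed levels of 81.3 and 87.9 CPM in the controls and 6.21 (VpR99) to 39.8 CPM (VpR126) in the lines. Cd4, which was not called and was at 31.0 CPM in VpR126 and 20.2 CPM in VpR2020, supplied most of the sum there. Without Cd4 the sum was 70.2 and 78.0 CPM in the controls and 3.22 (VpR83), 4.87 (VpR99), 8.79 (VpR126) and 2.77 CPM (VpR2020). Ptcra, the pre-T cell receptor chain that marks the thymocytes in which Rag1, Rag2 and Dntt are also active, was at 0.0333 CPM and 0 in the controls, 0.0405 CPM in VpR99 and 0 in the other 3 lines. Of 7 plasmacytoid dendritic cell markers, 5 were called lower and 2 higher, with summed levels of 340 and 342 CPM in the controls and 206 to 485 CPM in the lines. Much of this sum came from single genes, Ly6d in the controls (143 and 148 CPM) and Bst2 in the lines (107 to 331 CPM). Ly6d, at 2.67 (VpR83), 22.1 (VpR99), 40.8 (VpR126) and 8.57 CPM (VpR2020), had the line order of Cd79a. Which cells supplied the Ly6d RNA, B lineage or plasmacytoid dendritic cells, was not tested. Siglech, the defining marker, was at 55.2 and 50.8 CPM in the controls and at 1.05 to 4.22 CPM in the lines, while Bst2 and Tcf4, which other cells share, were the 2 called higher (log2 fold changes 1.61 and 0.77). Both of these calls were lost without either control (adjusted p = 0.20 and 0.16 for Bst2, 0.12 and 0.18 for Tcf4), that of Bst2 also without VpR99 (0.069) and that of Tcf4 also without VpR83 (0.065) or VpR2020 (0.069). With upper-quartile scaling and with library totals the adjusted p was 0.057 and 0.059 for Bst2 and 0.085 and 0.080 for Tcf4, and with no low-count filter it was 0.079 for Bst2. Without control replicate 1 or 2, 2 of the 7 markers were called lower in each case.

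Plasma cells and stroma were counted in the same way. Of 6 plasma cell markers, 3 were called lower and 1 higher, with summed levels of 210 and 287 CPM in the controls and 26.8 to 97.7 CPM in the lines. Jchain, the joining chain of secreted antibodies, fell by 7.79 on the log2 scale (adjusted p = 0.0011), from 226 and 152 CPM to 0.221 to 2.11 CPM, and its value without VpR126 was -8.50. Prdm1, a plasma cell factor that myeloid cells also express, was higher, at 4.60 and 1.79 CPM in the controls and 11.3 to 45.5 CPM in the lines (adjusted p = 0.017). That call was lost without control replicate 1 (log2 fold change 4.02 against 3.17, adjusted p = 0.059), without control replicate 2 (0.11) and with voom (0.051). Of 8 stromal markers, 7 were tested, of which 6 were called lower and 1 higher, with summed levels of 50.9 and 68.4 CPM in the controls and 8.09 to 14.7 CPM in the lines. Kitl, the stem cell factor gene, was the higher one, at 1.67 and 1.36 CPM in the controls and 4.65 to 9.72 CPM in the lines (adjusted p = 0.0077, and 0.060 and 0.070 without control replicate 1 or 2). Cxcl12, the stromal chemokine that holds B cell precursors in the marrow niche, was at 19.6 and 25.6 CPM in the controls and at 0.0973 to 0.422 CPM in the lines. Adipoq, a marker of adipogenic progenitors, was at 0.733 and 0.940 CPM in the controls, 0.00811 CPM in VpR99 and 0 in the other 3 lines.

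The genes most alike in pattern to the 9 were found by the root mean square difference of centred log2 CPM from the median profile of the 9 genes over the 6 libraries. The 8 closest were Fcmr (0.152), Ptprcap (0.168), Ms4a2 (0.169), Gm37065 (0.171), Egfl6 (0.189), Jakmip1 (0.191), Cldn10 (0.195) and Fcrla (0.201). All 8 were called lower with all libraries, a direction that the choice by pattern fixes. The call of Fcmr did not hold without control replicate 1 or without control replicate 2. Fcmr, the IgM Fc receptor, was at 44.9 and 58.1 CPM in the controls and at 1.54, 6.41, 10.9 and 2.77 CPM in VpR83, VpR99, VpR126 and VpR2020. Fcrla, an Fc receptor-like protein of B cells, was at 115 and 116 CPM in the controls and at 4.39, 15.2, 24.6 and 7.63 CPM in the lines. Ms4a2 was at 19.1 and 18.8 CPM in the controls and at 0.549, 2.55, 4.44 and 1.38 CPM in the lines. Of the 8, Fcmr alone was also in one of the lists. Whether the pattern is particular to B cells was not tested. Of the 9 genes themselves, Vpreb3 (0.154) and Cd79a (0.239) lay closest to the median profile and Dntt (1.54) and Igll1 (1.42) farthest.

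Reads of overlapping genes cannot be separated with certainty, since no source used here gives the strand setting of the counting. Rag2 shares 4.70% of its 50-base words with B230118H07Rik, a gene that overlaps both RAG genes, and this gene held 367 and 242 counts in the controls and 101 to 1196 in the lines. Top3b overlaps 108 exon bases of Vpreb1 on the opposite strand. Pax5 shares 7.02% of its words with other genes and Cd79a shares 8.31%, all with Gm32220. Rag1 shares 80 exon bases with B230118H07Rik on the same strand and 0.503% of its words, which no strand setting would separate. Values of Vpreb1, Vpreb2, Rag1, Rag2, Pax5 and Cd79a are uncertain to this extent.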

How the data were processed

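Bulk RNA-seq counts of 6 libraries were analysed. A stranded Illumina TruSeq kit was used on total RNA, per the labels' protocols. The submitters' processing notes list Trimmomatic 0.38, STAR 2.5.2b and the build GRCm38. The counting tool, strand setting and annotation are not given in the sources used. The authors deposited raw counts, without normalization, for each Ensembl gene, and the names of all 6 columns matched samples. Of 45706 identifiers, 45143 matched GENCODE M21. Total counts set the precision: 3 counts, the most that a count of 0 allows, equal 0.0232 CPM in VpR99 and 0.161 CPM in control replicate 2, for counting error only.

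Counts were tested in R 4.3.3 with edgeR 4.0.16: filterByExpr defaults, TMM, robust quasi-likelihood fit and two-sided test on group alone, Benjamini-Hochberg over all genes tested, called at an adjusted p below 0.05. Each SE is |log2 fold change| over the square root of F, not a fitted SE. The procedure was tested on simulated data. The 14 alternatives were other scalings (RLE, upper-quartile, library totals), other filters (none, or a total of at least 60), DESeq2 1.42.0, voom of limma 3.58.1, VpR99 thinned to the depth of the others, and leaving out each library. A level per line on library totals was also computed. No 2 libraries agreed within sampling noise.

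The members and gene lists were chosen with earlier results of these data known. All 9 members are named. From each other list the text names genes called against the list's majority, the 2 called genes with the largest change and the 2 with the highest mean CPM, with some of these left out for space. Ptcra and Ltf were named after their values were seen. Profiles for likeness used log2 CPM with a prior count of 2.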

Additional observations from a re-analysis of the deposited data

Results flagged for a closer look

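Igll1 in the VpR99 library stood apart from the other conditioned libraries. Its level was 2.12 CPM, against 0.366, 0.387 and 0.634 CPM in VpR83, VpR2020 and VpR126, and the gap to the nearest of them was 0.848 of the whole range of the 4. The 9 precursor genes were checked in this way over the 4 conditioned libraries, on CPM and not on the log2 scale. Chance marks about 1 in 20 such groups if levels follow a normal distribution, which was not tested. VpR99 was also the most deeply sequenced library, and with it thinned to the depth of the others the Igll1 log2 fold change was -5.68 against -5.51.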

How the results depend on the processing

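No log2 fold change of the 9 genes, or of the called genes named from the lists, changed sign under the 14 alternatives (13 for Adipoq, which the filter on a total of at least 60 removed). Those of Syk, Irf8 and Cd4, which were not called, did under some. With single libraries left out, the number of the 9 genes called lower ranged from 3 to 8, pathway genes called lower from 13 to 39 and higher from 1 to 4, and markers of other cells called higher from 4 to 10. The lowest counts were those without a control, which leave 1 control that is assumed to vary like the conditioned libraries. On library totals, the summed level of the 9 genes was 817 and 975 CPM in control replicates 1 and 2, 135 in VpR99, 225 in VpR126 and 54.3 in VpR2020, against 747, 854, 141, 245 and 58.3 with TMM. Rag2 was called with upper-quartile scaling (adjusted p = 0.049), library totals (0.045) and DESeq2 (0.023), and Pax5 with library totals (0.048), DESeq2 (0.018) and voom (0.041), and the cause was not tested. Cd79a was lost with no low-count filter (adjusted p = 0.099). Counts of 7 to 25 limit Vpreb1, Igll1 and Dntt in VpR83, VpR126 and VpR2020. No paired analysis was possible because only the controls carry replicate numbers.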
